A study of Mus musculus with 4 samples.

Results

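The PYHIN genes, also called the Ifi200 family, were described here in leukaemic spleen cells of mice that carried transplanted MLL-AF9 cells, a model of acute myeloid leukaemia in which a fusion of MLL and AF9 drives the disease. Members were taken by symbol from a list of 7 names, of which 5 (Ifi203, Ifi204, Ifi205, Mndal and Aim2) were among the 24497 features of the deposited table. The other names, Mnda and Pyhin1, are given by RefSeq as older names of Ifi211 and Ifi209. Both of these were in the table under their newer symbols, and they were followed as relatives of the members together with Ifi202b, Ifi207, Ifi208, Ifi213 and Ifi214. RefSeq also gives Mndal as an older name of Ifi203, and here each symbol was a feature of its own. All 4 libraries came from secondary recipient mice irradiated with 320 rads and given 50000 CD45.2 donor leukaemia cells. The PBS group (replicates 1 and 2) received PBS. The CS1 group (replicates 1 and 2) received 5 mg/kg of CS1, an inhibitor of the RNA demethylase FTO per the labels, into the peritoneum on alternate days for 20 days. In 1 library, CS1 replicate 2, the treatment field names CS2 although the title and description name CS1, and the counts of calls, the fold changes of the family genes and the members' summed level were also computed without it. The labels give no age or strain of the mice, no clone of the leukaemia and no statement that replicates are separate animals. The p-values therefore cover the spread between these libraries alone, and that spread may be technical. CD45.2-positive cells were enriched on magnetic beads, so cells of the recipient may remain, and a treatment effect cannot be told apart from a difference in leukaemia clones between groups.

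PYHIN proteins join a pyrin domain, which binds other pyrin domains, to one or more HIN domains, which bind double-stranded DNA. In mice the genes form an expanded cluster on chromosome 1, many of them are induced by interferon, and they are known mainly from myeloid cells. Aim2 senses DNA in the cytosol and, through the adaptor ASC (encoded by Pycard), activates caspase-1. Ifi204 is usually set beside human IFI16 and is linked to the STING pathway, and several other members are nuclear proteins studied as regulators of transcription and differentiation.

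Because many PYHIN genes respond to interferon, the bases before their start sites were searched for GAAANNGAAA, a form of the element bound by interferon regulatory factors. The search covered both strands of the 250 bases before each start in the RefSeq promoter table (GRCm38.p6), which has an entry for 11 of the 12 family genes in the expression table and none for Ifi204. The motif was present for 8 of these 11 genes, against 2.98% of all 32851 windows of that length. The windows below show 30 bases around it, with the 10 bases at the motif's place in capitals, because the same element stands before genes that changed in opposite directions.
Mndal: aagagctgggGAAATCGAAAgctatgaaca
Ifi203: aagagctgggGAAATCGAAAgctatgaaca
Ifi205: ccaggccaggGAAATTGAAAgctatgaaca
Ifi211: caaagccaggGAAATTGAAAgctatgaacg
Ifi207: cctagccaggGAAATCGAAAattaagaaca
Ifi208: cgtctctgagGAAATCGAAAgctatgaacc
Ifi213: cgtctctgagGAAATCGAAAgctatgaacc
Ifi214: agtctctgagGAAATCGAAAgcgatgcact
Ifi209: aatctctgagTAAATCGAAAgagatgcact
In Ifi209 the element is interrupted by the substitution G1T (motif base first, position counted from 1 at the motif's 5′ end), so it does not count as a match. The windows of Mndal (chr1:173880204-173880233), Ifi203 (chr1:173942508-173942537, its second listed start), Ifi205 (chr1:174031870-174031899), Ifi211 (chr1:173913064-173913093), Ifi207 (chr1:173741831-173741860), Ifi213 (chr1:173599326-173599355) and Ifi214 (chr1:173536017-173536046) lie on the minus strand. Those of Ifi208 (chr1:173673597-173673626) and Ifi209 (chr1:173630770-173630799) lie on the plus strand. The exact word GAAATCGAAA was picked as the commonest form of the motif in the family windows, so its frequency there is no test. It occurred in 13 of the 32851 windows (0.0396%), and 6 of these belong to the family genes in the table. Ifi206, a family gene absent from the expression table, is also among the 13. No GAAANNGAAA match was in the windows of Aim2, Ifi209 or Ifi202b; that of Aim2 held GAGGAAGT, a form of the element bound by PU.1, which was in 2.44% of all windows. The element TTCNNNGAA, bound by STAT dimers, was in the window of Ifi202b alone, against 7.02% of all windows. Matches of the searched motifs did not overlap one another in these windows. In the gene models of GENCODE M21, the windows of Aim2, Ifi213, Mndal (each listed start), Ifi203 (second start) and Ifi205 overlap an exon of the same gene. These windows thus lie before a RefSeq start but not wholly outside the gene's exons, and every gene that rose has such a window. A match is a description of these letters and not a shown binding site.

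Levels were read as TPM, a transcript's share of its library after correction for transcript length, so genes can be compared with each other. In PBS the order was Ifi207 (105 ± 1.22 TPM, SD, n = 2), Ifi209 (86.2 ± 3.44), Aim2 (83.2 ± 0.177), Ifi204 (81.9 ± 3.09), Mndal (78.4 ± 3.86), Ifi203 (17.1 ± 0.509), Ifi211 (5.88 ± 0.516), Ifi205 (3.47 ± 0.594) and Ifi208 (1.00 ± 0.226). Aim2 overlapped Ifi204, Ifi204 overlapped Mndal, and Ifi209 exceeded Aim2 by less than its own SD. In CS1 the order was Mndal (140 ± 3.50 TPM), Aim2 (99.6 ± 0.537), Ifi207 (55.1 ± 1.85), Ifi209 (43.3 ± 0.573), Ifi203 (38.9 ± 0.785), Ifi204 (24.9 ± 0.0566), Ifi205 (8.97 ± 0.757), Ifi211 (4.42 ± 0.834) and Ifi208 (1.14 ± 0.0778), and no neighbours in that order overlapped. Ifi202b, Ifi213 and Ifi214 stayed under 1 TPM in every library.

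**Figure D1:**
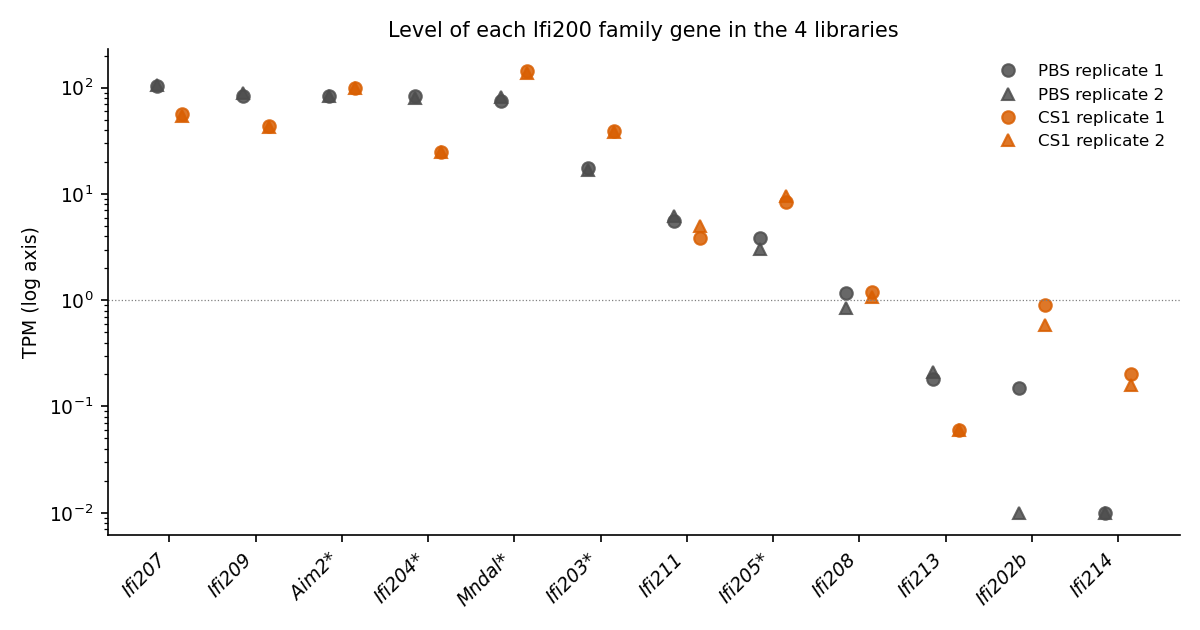
TPM (log axis) of the 12 family genes in PBS replicates 1 and 2 (grey) and CS1 replicates 1 and 2 (orange), ordered by their PBS mean; asterisks mark the 5 members and the dotted line 1 TPM. Ifi207, Ifi209 and Ifi204 lie lower in both CS1 libraries, while Mndal, Ifi203, Ifi205 and Aim2 lie higher.

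The 5 members differed between treatments in opposite directions. Ifi203, Ifi205, Mndal and Aim2 rose in CS1 and Ifi204 fell, so 4 of 5 were higher and 1 of 5 lower at an adjusted p under 0.05 (limma on log2(TPM + 1), Benjamini-Hochberg over the 11866 features that reached 1 TPM in 2 or more libraries). That test called 67.0% of all tested features, 35.3% as higher and 31.6% as lower, so a call alone sets no member apart. The groups did not overlap for any of the 5, against 84.4% of all tested features. Large changes were less common: 4 of the 5 were called with a log2 change of 0.5 or more, against 28.2% of all features, and 3 of the 5 with one of 1 or more, against 7.47%. All 5 passed the minimum level in at least 2 libraries. The median log2 fold change was 0.83 over the members and 0.04 over all features. Over the 4 tested relatives the median was -0.64, and over all 9 tested family genes it was 0.098. The higher median of the members thus did not hold for the family. Of the 9 family genes, 6 were called with a log2 change of 0.5 or more and 3 with one of 1 or more. Those 3 include Ifi205, whose value is uncertain because it shares sequence with other family genes.

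Ifi204 had the largest change among the members. It was measured at 84.06 and 79.69 TPM in PBS replicates 1 and 2 and at 24.85 and 24.93 TPM in the CS1 replicates. Both PBS libraries thus lay far above both CS1 libraries, a 3.29-fold higher mean in PBS, and the log2 fold change was -1.68 ± 0.04 (SE, adjusted p = 3.98e-06). Of all tested features, 1.69% changed by more. All fold changes use log2(TPM + 1), and the added 1 shrinks the change of low genes.

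Aim2, the inflammasome sensor, moved the other way and by little. Its values were 83.34 and 83.09 TPM in PBS and 99.19 and 99.95 TPM in CS1, so the replicates of each group nearly coincided and the groups were apart. The PBS mean was 0.836 of the CS1 mean (log2 fold change 0.26 ± 0.03, adjusted p = 0.00047), and 57.2% of tested features changed by more than Aim2 did. In PBS the ratio of Aim2 to Ifi204 was 0.991 and 1.04 in the libraries, and in CS1 it was 3.99 and 4.01. A ratio within a library does not depend on how the libraries were scaled.

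Mndal, named for its likeness to the human myeloid nuclear differentiation antigen, was the most abundant family transcript in CS1. It rose from 75.7 and 81.16 TPM in PBS to 142.46 and 137.51 TPM in CS1, with both CS1 libraries above both PBS libraries. The ratio of means was 1.78 and the log2 fold change 0.83 ± 0.04 (adjusted p = 2.85e-05). Ifi204 and Mndal stood near parity in PBS, with ratios of 1.11 and 0.982, whereas in CS1 Ifi204 was at 0.174 and 0.181 of Mndal.

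Ifi203, a pyrin and HIN domain gene whose span overlaps that of Mndal, rose from 17.42 and 16.7 TPM to 39.41 and 38.3 TPM. Its ratio of 2.28 was above that of Mndal, and the log2 fold change was 1.14 ± 0.05 (adjusted p = 1.80e-05). Ifi205, studied as a regulator of inflammasome genes in macrophages, was the least abundant member and rose from 3.89 and 3.05 TPM to 8.44 and 9.51 TPM. Replicates of Ifi205 differed more, relative to their level, than those of the other members, yet the groups stayed apart (log2 fold change 1.16 ± 0.13, adjusted p = 0.000524).

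Among the 7 relatives, 4 passed the minimum level and 2 of these fell, none rising, against 31.6% lower and 35.3% higher of all tested features. Ifi207, the most abundant family transcript in PBS, fell from 104.49 and 106.22 TPM to 56.42 and 53.8 TPM (log2 fold change -0.92 ± 0.04, adjusted p = 1.19e-05). Ifi209, listed under its older name Pyhin1 among the members, fell from 83.8 and 88.66 TPM to 43.75 and 42.94 TPM (-0.98 ± 0.04, adjusted p = 1.45e-05). Both fell, as Ifi204 did; in PBS both libraries of Ifi207 lay above those of Ifi204, while the libraries of Ifi209 and Ifi204 overlapped. Ifi211, whose older name is Mnda, was measured at 5.52 and 6.25 TPM in PBS and 3.83 and 5.01 TPM in CS1, a difference short of the threshold (-0.35 ± 0.14, adjusted p = 0.0657). It passed in 3 of 13 alternatives, among them that without CS1 replicate 2 (adjusted p = 0.0281). Ifi208, known by the older name Pydc3, stood at 1.16 and 0.84 TPM in PBS and 1.19 and 1.08 TPM in CS1, with overlapping groups (adjusted p = 0.598). Ifi202b, which lacks a pyrin domain and is known as an antagonist of Aim2, was not tested; it was listed at 0.15 and 0.01 TPM in PBS and at 0.9 and 0.59 TPM in CS1. Ifi213 was listed at 0.18 and 0.21 TPM in PBS and at 0.06 in each CS1 library. Ifi214 was listed at 0.01, the lowest value the table holds, in both PBS libraries and at 0.2 and 0.16 TPM in CS1.

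Together the family changed in make-up more than in amount. The 12 genes summed to 459.72 and 465.89 TPM in PBS and 420.7 and 413.84 TPM in CS1, a ratio of 0.902. Summed over the 5 members alone the direction was opposite, at 264.41 and 263.69 TPM in PBS and 314.35 and 310.2 TPM in CS1 (ratio 1.18), because the 5 leave out Ifi207 and Ifi209. The 3 genes that fell (Ifi204, Ifi207 and Ifi209) made up 59.2% and 58.9% of the family's TPM in PBS and 29.7% and 29.4% in CS1. Mndal alone went from 16.5% and 17.4% to 33.9% and 33.2%. Ifi204 went from 18.3% and 17.1% to 5.91% and 6.02%. These sums were not tested.

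**Figure D2:**
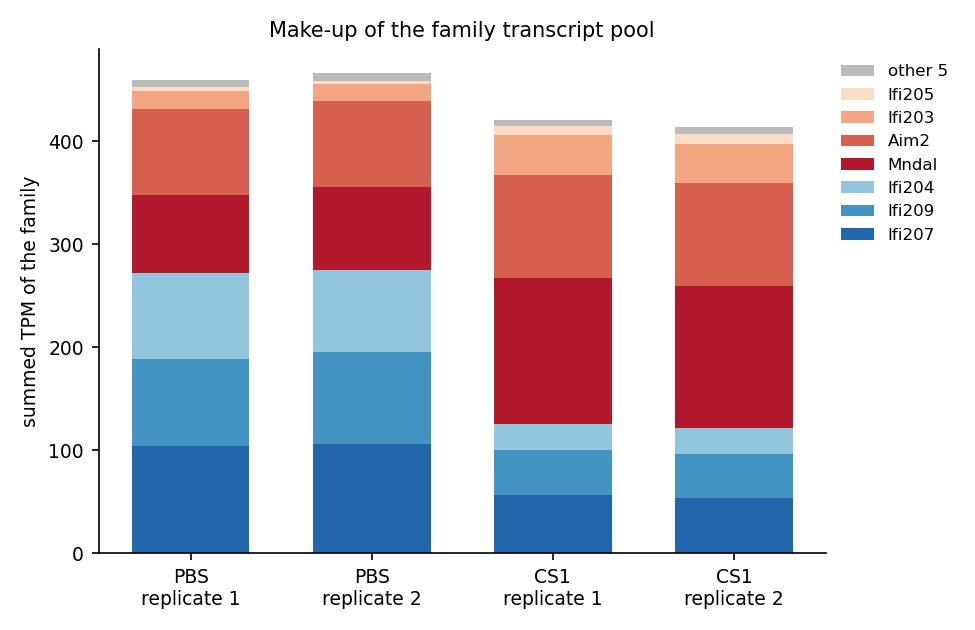
Summed TPM of the 12 family genes in each library, starting at 0, with the genes that fell in blue, the genes that rose in red shades and the other 5 in grey. The total is 459.72 and 465.89 TPM in PBS and 420.7 and 413.84 TPM in CS1, while the blue part shrinks from 59.2% and 58.9% to 29.7% and 29.4%.

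The 12 genes lie within 680.9 kb of chromosome 1 (chr1:173350879-174031810, mm10, with gene models from GENCODE M21). From Aim2 (chr1:173350879-173466040, plus strand) the tested genes run in the order Ifi209, Ifi208, Ifi207, Ifi204, Mndal, Ifi211, Ifi203 and Ifi205. The order is by lowest coordinate, since the span of Mndal overlaps that of Ifi203 and contains that of Ifi211 (chr1:173896345-173913046). The genes that fell were thus neighbours in this order, apart from Ifi208, which was near 1 TPM. Ifi204 (chr1:173747293-173766943, minus strand), which fell most, was followed by Mndal (chr1:173849126-173942491, minus strand), which rose. The genes that rose other than Aim2 filled the far end with Ifi203 (chr1:173920407-173942672, minus strand) and Ifi205 (chr1:174011998-174031810, minus strand), apart from Ifi211. No other tested gene lay inside the stretch. The nearest tested genes outside it were Dusp23, a phosphatase gene (log2 fold change 0.43, adjusted p = 0.0878), and Tagln2, which encodes an actin-binding protein (-0.50, adjusted p = 1.01e-05), on one side. On the other side were Fh1, the fumarase gene (0.25, adjusted p = 0.000899), and Kmo, which encodes kynurenine monooxygenase (0.38, adjusted p = 0.00282). Dusp23 and Tagln2 lay 717917 and 843499 bases from the stretch, and Fh1 and Kmo 1568564 and 1588571 bases. Each distance is longer than the stretch itself.

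**Figure D3:**
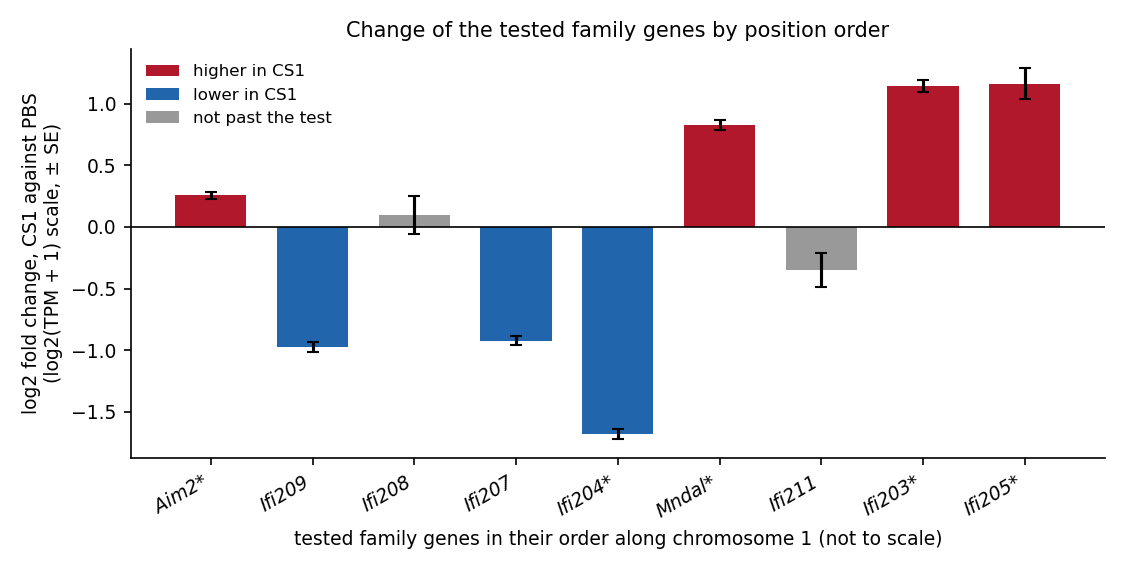
Log2 fold change (CS1 against PBS, log2(TPM + 1) scale, bars ± SE) of the 9 tested family genes in their order along chromosome 1, not to scale; asterisks mark the members. Ifi209, Ifi207 and Ifi204 fell by 0.98, 0.92 and 1.68 on the log2 scale, while Mndal, Ifi203 and Ifi205 rose by 0.83, 1.14 and 1.16; the grey bars did not pass the test.

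Ifi204 has no window, so the motif can be set beside direction in few genes. Of the genes that rose, 3 of 4 (Mndal, Ifi203 and Ifi205) had GAAANNGAAA before a listed start and Aim2 did not. Of the genes that fell, Ifi207 had it and Ifi209 did not. The windows of the first listed start of Mndal and the second of Ifi203 shared 93.2% of the 250 bases, and both genes rose. The other pairings of their listed starts shared 50.8%, 53.2% and 55.2%. Ifi207 and Ifi211 shared 86.4%, with log2 fold changes of -0.92 and -0.35, the latter short of the threshold, and means of 105 and 5.88 TPM in PBS. Ifi209 and Ifi214 shared 94.8%, although Ifi209 was measured at 86.2 ± 3.44 TPM in PBS and Ifi214 was listed at 0.01 there. The 250 bases before the starts of the relatives that fell are shown whole, because their changes were of like size while only the first has the motif, in capitals.
Ifi207: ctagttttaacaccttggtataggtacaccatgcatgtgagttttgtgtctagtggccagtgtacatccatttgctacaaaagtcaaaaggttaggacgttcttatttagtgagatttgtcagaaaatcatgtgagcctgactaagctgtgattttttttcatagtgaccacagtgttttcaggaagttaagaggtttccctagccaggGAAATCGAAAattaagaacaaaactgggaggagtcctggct
Ifi209: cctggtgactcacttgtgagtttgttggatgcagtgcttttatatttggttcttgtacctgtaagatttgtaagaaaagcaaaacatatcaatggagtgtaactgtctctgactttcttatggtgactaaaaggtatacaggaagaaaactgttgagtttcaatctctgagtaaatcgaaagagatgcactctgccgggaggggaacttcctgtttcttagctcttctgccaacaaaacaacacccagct
These are chr1:173741810-173742059, minus strand, for Ifi207 and chr1:173630609-173630858, plus strand, for Ifi209, from RefSeq's table on GRCm38.p6.

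Family genes resemble each other, and reads that fit several of them can be divided in error. In GENCODE M21 transcripts, the share of stretches of 50 bases that also occur in another gene, on either strand, was 0.742% for Aim2, 7.29% for Ifi207, 12.4% for Ifi203, 18.6% for Ifi205, 19.6% for Mndal, 20.0% for Ifi204, 33.7% for Ifi209 and 72.8% for Ifi211. Most of the sequence of each gene that passed the test was thus its own, while the value of Ifi211 is uncertain. Ifi204 shared most with Ifi211 (14.8% of its stretches), Ifi205 with Ifi211 (18.5%) and Ifi209 with Ifi214 (33.4%). Ifi211 was listed far below Ifi204, and Ifi214 far below Ifi209, in every library. These levels themselves depend on how shared reads were divided. The part of such reads in the falls of Ifi204 and Ifi209 was not tested. Ifi211 was above Ifi205 in PBS and below it in CS1, and 44.7% of the stretches of Ifi211 also occur in Ifi205. Of its own stretches, Ifi205 shared a further 6.3% with Mndal and 1.4% with Ifi204. Mndal rose and Ifi204 fell, and each was more abundant than Ifi205 in every library. The value of Ifi205 is therefore uncertain, and the part of shared reads in its rise was not tested. Mndal and Ifi203 share 37 bases of exon on the same strand. The sources used here do not give the read length or the handling of shared reads.

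Genes of the inflammasome, which Aim2 starts, were mostly lower in CS1. Of 15 tested genes of the AIM2 inflammasome and of pyroptosis, 12 fell and 0 rose, against 31.6% and 35.3% of all tested features. Their median log2 fold change was -0.52 against 0.04 for all features. Pycard, the ASC adaptor that Aim2 recruits, went from 97.57 and 98.22 TPM to 59.19 and 54.53 TPM (-0.77 ± 0.05, adjusted p = 4.59e-05). Casp1, the caspase it activates, was at 94.01 and 91.51 TPM in PBS and 104.53 and 95.37 TPM in CS1, with no call (adjusted p = 0.101). Nlrp1a, another inflammasome sensor, fell from 21.2 ± 0.905 to 4.41 ± 0.205 TPM, Casp4, the caspase of the noncanonical inflammasome, from 56.1 ± 1.80 to 22.9 ± 1.72 TPM, and Gsdmd, the pore-forming gasdermin, from 284 ± 4.53 to 195 ± 4.60 TPM. Aim2 itself was thus higher in CS1, and its adaptor lower.

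Genes of cytosolic DNA sensing were split, with 5 of 18 higher and 7 lower (median -0.01). Of all tested features 35.3% were higher and 31.6% lower, so these counts do not set the list apart. Mb21d1, which encodes cGAS, had a log2 fold change of -0.48 (adjusted p = 0.00156), and Tmem173, which encodes STING, one of -0.35 (adjusted p = 0.00217). Tbk1 and Irf3, which act after STING, did not pass (-0.01 and -0.05, adjusted p = 0.799 and 0.185). Zbp1, a nucleic acid sensor, fell from 46.6 ± 1.63 to 10.8 ± 0.325 TPM, Samhd1, a nucleotide hydrolase, from 738 ± 0.587 to 329 ± 8.83 TPM, and the kinase gene Ikbke from 123 ± 0.375 to 75.1 ± 0.905 TPM. The DNA-bending proteins Hmgb1 and Hmgb2 and the ribonuclease H2 subunits Rnaseh2a and Rnaseh2b were among the genes that rose, with log2 fold changes of 0.35, 0.49, 0.26 and 0.14; Rnaseh2b passed in 4 of 13 alternatives.

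Interferon signalling genes fell in 16 of 21 tested cases and rose in 1 (median -0.36), against 31.6% and 35.3% of all tested features. The ligand genes Ifnb1, Ifna2 and Ifna4 were listed at 0.01 in all 4 libraries, and Ifng stayed under 1 TPM. Jak1, which encodes a receptor kinase, fell from 145 ± 2.88 to 80.5 ± 1.68 TPM, and Irf7, an interferon regulatory factor, from 52.4 ± 0.417 to 25.5 ± 1.42 TPM. Irf8, a myeloid interferon regulatory factor, had a log2 fold change of 0.09 (adjusted p = 0.0207) and passed in 7 of 13 alternatives (adjusted p from 0.000727 to 0.116). Of 34 other interferon-stimulated genes, 22 fell and 2 rose (median -0.53), against the same shares of all tested features. Ifitm3, which restricts virus entry at membranes, went down from 1709 ± 1.46 to 534 ± 7.04 TPM, and Ifitm1 and Ifitm2 had log2 fold changes of -0.89 and -0.84. Tap1 and Psmb9, of antigen processing, were those that rose (0.13 and 0.26), Tap1 passing in 8 of 13 alternatives and Psmb9 in 12. Ifi204, Ifi207 and Ifi209 moved with the majority of these genes, and Mndal, Ifi203, Ifi205 and Aim2 against it. Whether the family differs from other interferon-stimulated genes was not tested.

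**Figure D4:**
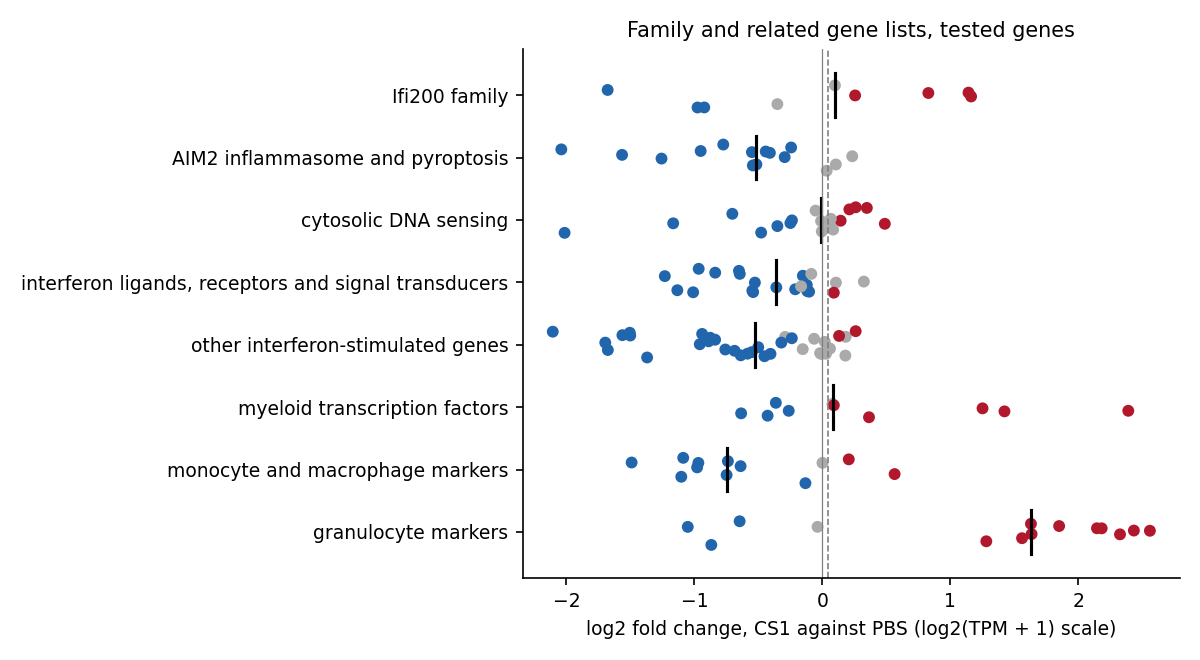
Log2 fold change (CS1 against PBS, log2(TPM + 1) scale) of the tested genes of the Ifi200 family and of 7 related lists, red where higher and blue where lower at an adjusted p under 0.05 and grey otherwise; black bars are list medians and the dashed line is the median of all tested features (0.04). The family spreads from -1.68 to 1.16, while the inflammasome and interferon lists lie mostly below 0.

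Cell markers moved with these differences, and in bulk samples fewer cells of a type and less RNA per cell cannot be told apart. The counts that follow stand beside 35.3% higher and 31.6% lower of all tested features. Monocyte and macrophage markers fell in 9 of 12 tested cases and rose in 2, with a summed level of 18939 to 19104 TPM in PBS and 10226 to 10230 TPM in CS1; Lyz2, Cd68 and Csf1r had log2 fold changes of -1.09, -0.98 and -0.74. Granulocyte markers rose in 10 of 14 cases and fell in 3 (7059 to 7123 TPM against 23841 to 23918 TPM), with log2 fold changes of 2.56 for Elane, 2.43 for Camp and 2.33 for Mpo. Those that fell were Mmp8, Csf3r and Ltf (-1.05, -0.87 and -0.65), and Ly6g was not called (-0.04, adjusted p = 0.837). The granulocyte markers thus did not move as 1 set. Myeloid transcription factors were split, 5 of 10 higher and 4 lower, among them Gfi1, Cebpe and Myb with rises of 2.39, 1.42 and 1.25 and Spi1, which encodes PU.1, with -0.26. The part of these cell states in the family's changes was not tested. Of 8 tested dendritic cell markers 6 rose and 1 fell; Flt3 and Tcf4 had log2 fold changes of 1.00 and 0.77 and Cd209a one of -1.22. Markers of other lineages were low: summed levels were at most 16.2 TPM for T cells (2 of 5 lower, Lck and Cd3e at -0.49 and -0.76, which passed in 9 and 5 of the 12 alternatives that tested them; Il7r at -0.32 did not pass), 56.6 TPM for NK cells (2 of 3 higher, Nkg7 and Klrd1 at 1.84 and 0.69, and Gzma lower at -0.65), 71.7 TPM for B cells (5 of 7 lower, among them Cd79b and Pax5 at -0.75 and -1.17, and Fcrla higher at 1.31) and 42.8 TPM for erythroid cells (1 of 3 higher; 0 higher and 1 lower, Hba-a1, without CS1 replicate 1). The NK cell markers Ncr1, Klrb1c, Prf1, Eomes and Klre1 and the erythroid genes Slc4a1 and Gata1 stayed under 1 TPM in every library. Hbb-bs, the erythroid gene that rose, was listed at 0.01 in both PBS libraries, and Hba-a1 and Hbb-bt did not pass. In CS1 replicate 2 Hba-a1 was listed at 0.01 and Hba-a2 at 19.33 TPM. In the other libraries Hba-a1 was at 16.22 to 26.08 TPM and Hba-a2 at 0.01. The low Hba-a1 value thus stood beside a high Hba-a2 value, and how reads were divided between these genes was not tested. Ptprc, which encodes the CD45 used for enrichment, fell from 590 ± 9.74 to 319 ± 6.05 TPM, and Fto, the labelled target, was at 30.2 ± 0.969 and 31.4 ± 0.735 TPM (adjusted p = 0.334). The 4 columns summed to between 977973 and 986345 TPM, and their read depth is unknown.

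Genes with the most similar pattern were sought by the distance between log2(TPM + 1) values centred on each gene's mean over the 4 libraries. Because the members moved in opposite directions, their mean profile was a mild rise, and the nearest genes to it were Bambi, C2cd5, Pcgf5, Pnkd and Rsrc1, at distances of 0.0035 to 0.0125. The nearest to each member were chosen after the values were seen. For Ifi204 they were Ifitm3, Eps8 and P2ry1 (distances 0.0573, 0.0757 and 0.0827), and for Mndal they were Lmbr1, Tsc22d1 and Sestd1 (0.0152, 0.0178 and 0.0234). With 4 libraries in 2 groups, such a distance mostly restates the size of the change.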

How the data were processed

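Poly(A) RNA was sequenced from 2 PBS and 2 CS1 libraries. The deposited values were taken as TPM made by the authors, from the column sums and decimals. STAR, RSEM and mm10 are named per the submitters' processing notes; the sources used here do not give versions, roles or annotation. The lowest deposited value, 0.01, stands where a 0 would be expected. TPM keeps no read depth, so no counting interval is given. Values were transformed to log2(TPM + 1), features reaching 1 TPM in 2 or more libraries were kept, and CS1 was compared with PBS over the whole table in limma 3.58.1 (R 4.3.3; variance trend on, two-sided, Benjamini-Hochberg adjustment, calls at an adjusted p under 0.05). The fit was run on simulated data in which far fewer features changed than were called here. That run checks the code and not the calls in these data. An exact permutation test of 2 against 2 libraries cannot give a two-sided p under 0.333. Named genes are the members, their relatives, the 3 genes with the smallest p of each of 12 further lists, the 2 nearest tested genes on each side, the 5 genes of most similar pattern, Fto and Ptprc; further genes named for their role or direction (among them Pycard, Casp1, Mb21d1, Tmem173, Hmgb1, Hmgb2, Irf8, Tap1, Psmb9 and Spi1) were chosen after their values were seen. A gene taken by the rule is not reported here. The members and lists were chosen with earlier results of these data known. Motif and identity searches, added after the values were seen, used Biopython 1.88. The fit was repeated under 13 alternatives, and the members' sum was also taken over all 12 family genes.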

Additional observations from a re-analysis of the deposited data

How the results depend on the processing

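The 5 members kept their direction and stayed past the threshold under all 13 alternatives, with log2 fold changes of -1.72 to -1.64 for Ifi204, 1.104 to 1.183 for Ifi203, 0.97 to 1.35 for Ifi205, 0.78 to 0.92 for Mndal and 0.22 to 0.35 for Aim2, and Ifi207 and Ifi209 did so too. Their highest adjusted p was 0.0392, for Ifi205 with no filter. With 1 library left out, limma assumes that the lone library of a group varies like the others; calls over all features then numbered 6679 to 6888 and members called stayed at 5. Without a filter 5555 of 24497 features were called. The summed level of the members, CS1 over PBS, was 1.15 with libraries scaled by trimmed means of M values, 1.24 after quantile normalization and 1.16 after centring on the median. It fell to 0.902 when all 12 family genes were summed, since Ifi207 and Ifi209 then enter. Ifi208, never called, had a log2 fold change of -0.24 after quantile normalization and, with 1 library left out, from -0.0173 without PBS replicate 2 to 0.2141 without PBS replicate 1; the cause was not tested. Ifi211 passed after quantile normalization (-0.57, adjusted p = 0.0181), with the replicate block (0.0381) and without CS1 replicate 2 (0.0281), within 0.0181 to 0.336 over its alternatives. Deviations from the group means in PBS replicate 1 and CS1 replicate 1 had a correlation of 0.022 over 11866 features. With 2 libraries per group this cannot show whether same-numbered libraries were paired. The replicate block gave 7750 calls and 5 members called, and with it the fixed lists had 119 called genes against 118. Without a filter, 15 other interferon-stimulated genes, 0 T cell markers, 1 B cell marker and 2 erythroid markers were called, and at a minimum of 5 TPM 4 dendritic, 0 T and 2 B cell markers. T cell markers called were 0 to 1 with 1 library left out, and 1 with a pseudocount of 0.1 or with the block.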
